A study of Mus musculus with 4 samples.

Results

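The clustered protocadherin array was examined as the set of DNA methylation peaks that overlap chr18:37080000-38010000 (mouse build mm9), a window of 930 kb given as the position of the alpha, beta and gamma protocadherin genes. The 4 peak lists of the study held 81 peaks there in control islets, 86 in T2D islets, 51 in control sperm and 52 in T2D sperm, of 167712, 167325, 177342 and 178584 peaks in the whole lists. Merged over the lists, these formed 123 regions of 307189 genome-wide. No annotation on mm9 was used here, so the position of the window was not checked and no gene was assigned to a peak. In the RefSeq gene table (assembly GRCm38.p6), 58 clustered protocadherin genes are listed, 14 alpha, 22 beta and 22 gamma genes in this order along the chromosome, 1 of them (Pcdhgb8) a pseudogene. Between the first and the last of them lie Slc25a2, Taf7 and 3 genes known by provisional symbols only (Gm37013, Gm38666 and Gm38667), and the next protein-coding genes are Hars, Hars2 and Zmat2 before the array and Diaph1, Hdac3 and Rell2 after it.

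Protocadherins are cell-surface adhesion proteins of the cadherin superfamily, best known from neurons, where different sets of them give single cells distinct surface identities. Each alpha and gamma gene has its own large variable exon and promoter, and these variable exons are spliced to constant exons shared within the cluster, whereas beta genes are made of a single large exon. In neurons the choice among the variable promoters is largely random, and methylation of CpG sites at a promoter goes with its silence. Because the genes arose by duplication, their exons resemble each other, and the labels and headers do not say how reads that match several copies were placed.

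All animals were ICR mice, an outbred strain. T2D founder males had received a high-fat diet (33% of energy as fat) and, at 12 weeks of age, a low dose of streptozotocin, a toxin of insulin-producing cells, and had a fasting glucose of 7 to 11 mM in the 4 weeks after it; control founders had received a control diet. Sperm came from 6 control and 6 T2D founders at 16 weeks of age, and pancreatic islets came at 3 weeks of age from their young, 6 sired by control and 6 by T2D males, with mothers kept on standard diet. How the animals were combined and the sex of the offspring are not given in the labels. Each group was 1 library, so the comparison of T2D with control has no replicate check within a tissue. Islets and sperm were compared in each condition separately, which gives 2 libraries a side. No test was made, and the 95% intervals cover counting error alone. Methylated DNA was recovered with an antibody against 5-methylcytosine and sequenced (MeDIP-seq). A peak is an interval of dense reads, its tags are the reads in it, and its enrichment is the authors' fold over the background of the same library. The sperm libraries held 31053754 (control) and 31833988 (T2D) unique tags; the totals of the islet libraries were not given, and the smallest peak held 18 tags in the islet lists and 21 in the sperm lists.

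In islets the array carried peaks about as densely as the DNA around it, and in sperm it carried fewer. Peaks numbered 87.1 per Mb (95% Poisson interval 69.2 to 108) in control islets and 92.5 per Mb (74.0 to 114) in T2D islets. The 2 Mb upstream held 96.0 peaks per Mb in either islet list, and the 2 Mb downstream 98.5 and 94.5. In sperm the array held 54.8 per Mb (40.8 to 72.1) in the control and 55.9 per Mb (41.8 to 73.3) in the T2D library, against 93.0 and 95.5 upstream and 115 and 117 downstream. The density of the array relative to both flanks was thus 0.896 (exact interval 0.696 to 1.14) and 0.971 (0.759 to 1.23) in control and T2D islets, and 0.527 (0.386 to 0.706) and 0.526 (0.387 to 0.703) in control and T2D sperm. Over all autosomes the density was 68.1 and 67.9 peaks per Mb in islets and 72.7 and 73.3 in sperm.

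**Figure D1:**
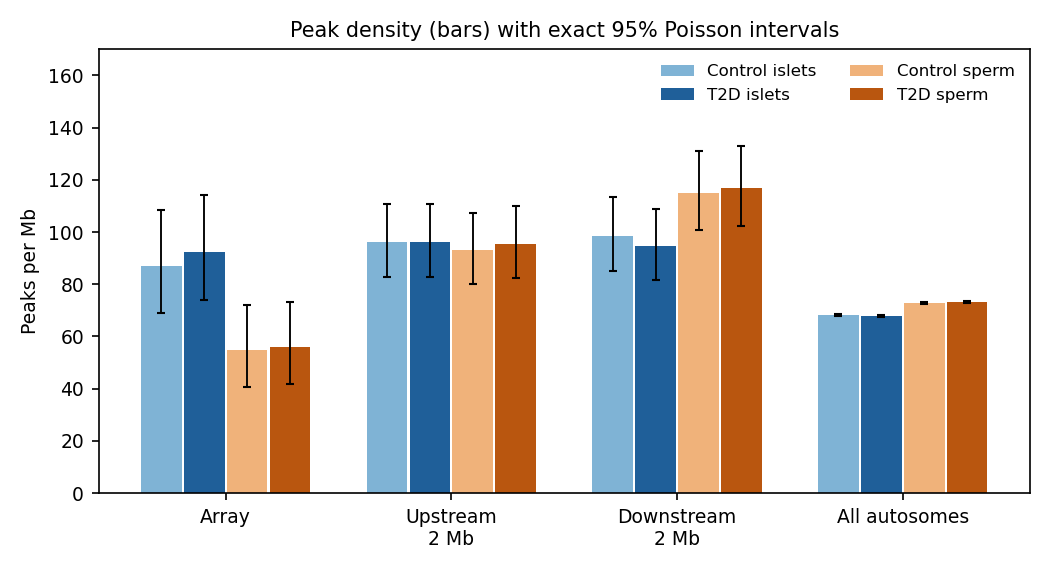
Peaks per Mb in the array, in the 2 Mb on either side and over all autosomes, for the 4 libraries, with exact 95% Poisson intervals of the counts. In the array the sperm bars (54.8 and 55.9) stand below the islet bars (87.1 and 92.5), whereas in the flanks all bars lie between 93.0 and 117.

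Islet peaks in the array were broad, and sperm peaks were not. The median width was 1087 bp (interval of the median 856 to 1217) in control and 1266 bp (1029 to 1456) in T2D islets, against 857 and 910 bp in the flanks and 868 and 901 bp over the autosomes. In sperm it was 868 bp (823 to 1042) and 944 bp (799 to 1085), against 1021 and 982 bp in the flanks. Peaks of at least 1500 bp made up 28.4% (Wilson interval 19.7% to 39.0%) of the array peaks in control islets and 36.0% (26.7% to 46.6%) in T2D islets, against 9.99% and 11.6% of the whole lists. The corresponding shares in sperm were 11.8% (5.51% to 23.4%) and 9.62% (4.18% to 20.6%), against 16.5% and 16.3%. Among autosomal windows of the array's length with at least 20 peaks, 44 of 2451 had a larger median width in control islets and 3 of 2470 in T2D islets.

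Tags per peak followed the widths. An array peak held a median of 52 tags in control and 64.5 tags in T2D islets, against 40 and 41 in the flanks. In sperm the medians were 43 and 39.5 tags, against 53.5 and 51 in the flanks. Tags per kb of peak were close to the flanks in every library, at 47.8 against 45.4 in control islets, 48.5 against 44.7 in T2D islets, 48.5 against 52.7 in control sperm and 48.0 against 52.5 in T2D sperm. Enrichment showed the opposite order to tags. The median enrichment of array peaks was 7.35 and 6.85 in control and T2D islets (flanks 7.44 and 7.35) but 7.91 and 7.76 in control and T2D sperm (flanks 6.85 and 6.87). The few sperm peaks of the array were therefore more enriched than those of the flanks. Their median width was lower, but its intervals (823 to 1042 bp in control, 799 to 1085 bp in T2D) include the flank medians. The islet peaks had a higher median width without being more enriched. In control islets the interval of that width (856 to 1217 bp) just reached the flank median of 857 bp.

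**Figure D2:**
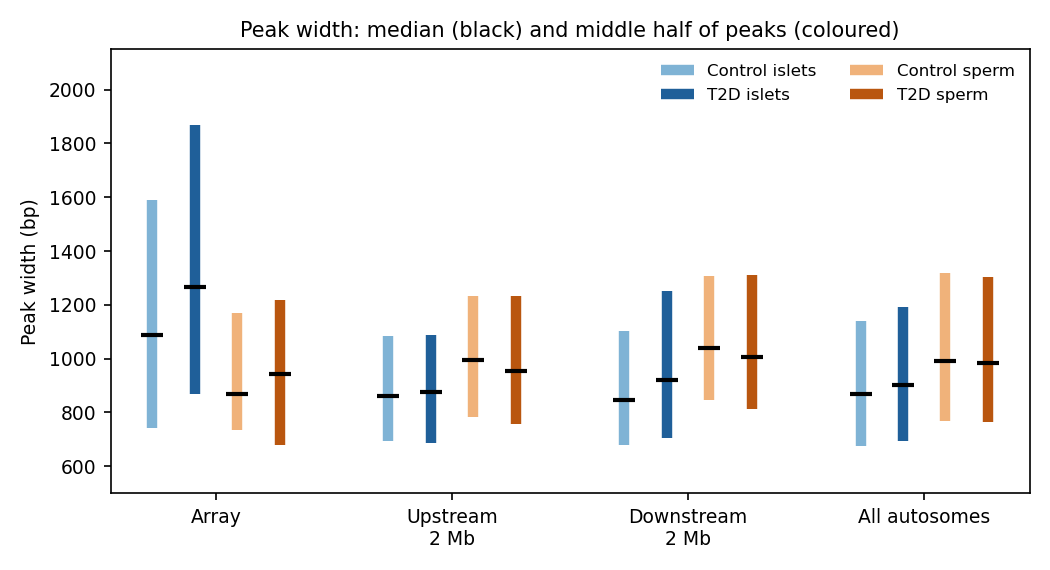
Width of peaks in bp, as the median (black) and the range of the middle 50% of peaks (coloured), for each library in the array, either flank and all autosomes. The islet bars reach up to 1591 and 1868 bp in the array, and 1252 bp or less in the flanks.

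Most islet peaks of the array had no counterpart in sperm. The array held 1.59 (exact interval 1.11 to 2.30) times as many peaks in control islets as in control sperm and 1.65 (1.16 to 2.38) times as many in T2D, against 0.946 and 0.937 for the whole lists, and 1.83 and 2.42 times as many tags in peaks, against 0.743 in either condition. A partner, a peak overlapping by at least 1 bp, was found in control sperm for 27 of 81 control islet peaks (33.3%, Wilson interval 24.0% to 44.1%), against 65.0% in the flanks and 59.2% in the whole list. In T2D sperm a partner was found for 30 of 86 T2D islet peaks (34.9%, 25.7% to 45.4%), against 67.5% and 58.0%. Seen from sperm the share was ordinary: 52.9% (39.5% to 65.9%) of control and 57.7% (44.2% to 70.1%) of T2D sperm peaks of the array had an islet partner, against 60.1% and 60.2% in the flanks.

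Counted as regions, 39 of the 123 were called in both islet lists and in neither sperm list, or 31.7% (24.1% to 40.4%), against 8.39% of all regions of the genome and 7.10% of those in the flanks. The reverse, called in both sperm lists and in neither islet list, held for 10 regions, or 8.13%, against 9.07% genome-wide. All 4 lists shared 19 regions (15.4%, against 21.5% genome-wide). Both islet lists held 69 regions (56.1%, against 36.7%) and both sperm lists 37 (30.1%, against 40.2%). Of the 39 islet regions, 5 lay within 1000 bp of a sperm peak (12.8%, against 18.3% of such regions genome-wide), and of the 10 sperm regions, 3 lay within 1000 bp of an islet peak (30.0%, against 17.5%).

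The array was then set among all windows of the same length tiled over the 19 autosomes, as a description of these libraries. Of 2587 other windows, 0 held as many regions called in both islet lists and neither sperm list; the highest held 28 and the median window 9. As a share of a window's regions, the 31.7% of the array was exceeded in 5 of 2552 windows, the highest at 46.4%. The ratio of islet to sperm peaks, 1.62 with both conditions summed, was exceeded in 12 of the 2282 windows with at least 20 peaks in each list, whose median was 0.922. The same ratio of covered length was 2.10 in the array and at most 1.94 in the other windows of this grid. For tags in peaks it was 2.12, exceeded by 1 window. The counts of single lists lay well inside the range of the windows: 849 and 695 windows held more in control and T2D islets, and 1687 and 1684 held more in control and T2D sperm. With the grid of windows shifted, a check added after seeing the data, 0 of 2574 windows exceeded 39 regions called in islets only, and the highest held 31. On that grid the ratio of islet to sperm peaks was exceeded in 15 of 2287 windows. The highest was 2.43, against 1.84 on the first grid. The ratios of covered length and of tags were not computed on the shifted grid. Tissue, age and generation differ together between the islet and sperm libraries and cannot be told apart, and the peak caller's settings are known for sperm alone.

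**Figure D3:**
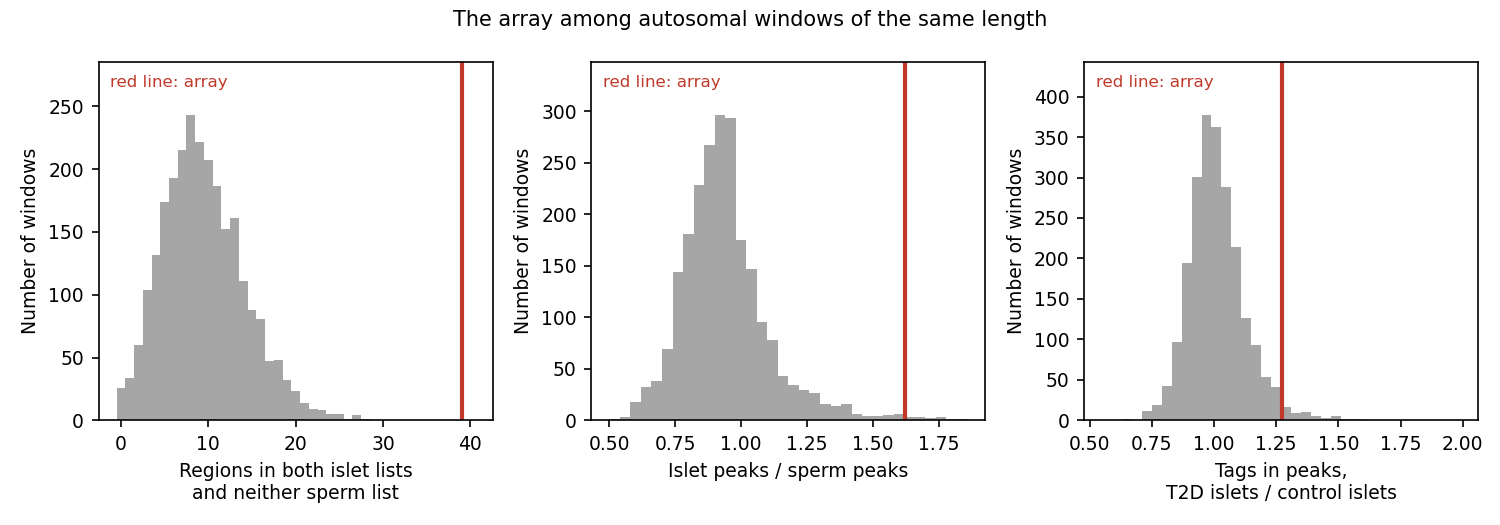
Histograms over autosomal windows of the array's length of 3 values: regions called in both islet lists and neither sperm list, islet peaks over sperm peaks, and tags in peaks of T2D over control islets. The red line marks the array, at 39 regions, 1.62 and 1.28; it lies beyond every other window in the first panel and within the range of the others in the other panels.

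The profile along the array differed between its parts. In the first 100 kb, a stretch picked after its values were seen, 11 regions were called in both islet lists, and 9 of these in neither sperm list. Over the whole array the latter held for 39 of 69 such regions, and genome-wide for 25760 of 112590. The midpoints of the 11 regions followed each other at 4.35 to 14.6 kb. They held a median of 89 tags in control islets (50 to 164) and 134 in T2D islets (66 to 223). More tags in T2D were held by 7 of the 11, against 63.8% over the whole array and 49.5% of all regions. Beyond the first 100 kb lay long stretches without a peak in any list, from 37206729 to 37239008 (32.3 kb) and 37239997 to 37274550 (34.6 kb). The longest such stretch in the array ran from 37736497 to 37772192 (35.7 kb). Of 31 tiles of 30 kb, 1 held no peak in either islet list, while 6 held none in control sperm and 5 none in T2D sperm. In the tiles from 120, 360 and 600 kb, islet peaks (2 and 2, 3 and 3, and 2 and 3 in control and T2D) met no sperm peak at all. Islet peaks outnumbered sperm peaks in 21 tiles, equalled them in 7 and were fewer in 3. In the last 310 kb the tissues were closest, with 33 and 34 islet peaks against 26 sperm peaks in either condition. In the middle 310 kb they were furthest apart, with 26 and 29 against 12 and 13.

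**Figure D4:**
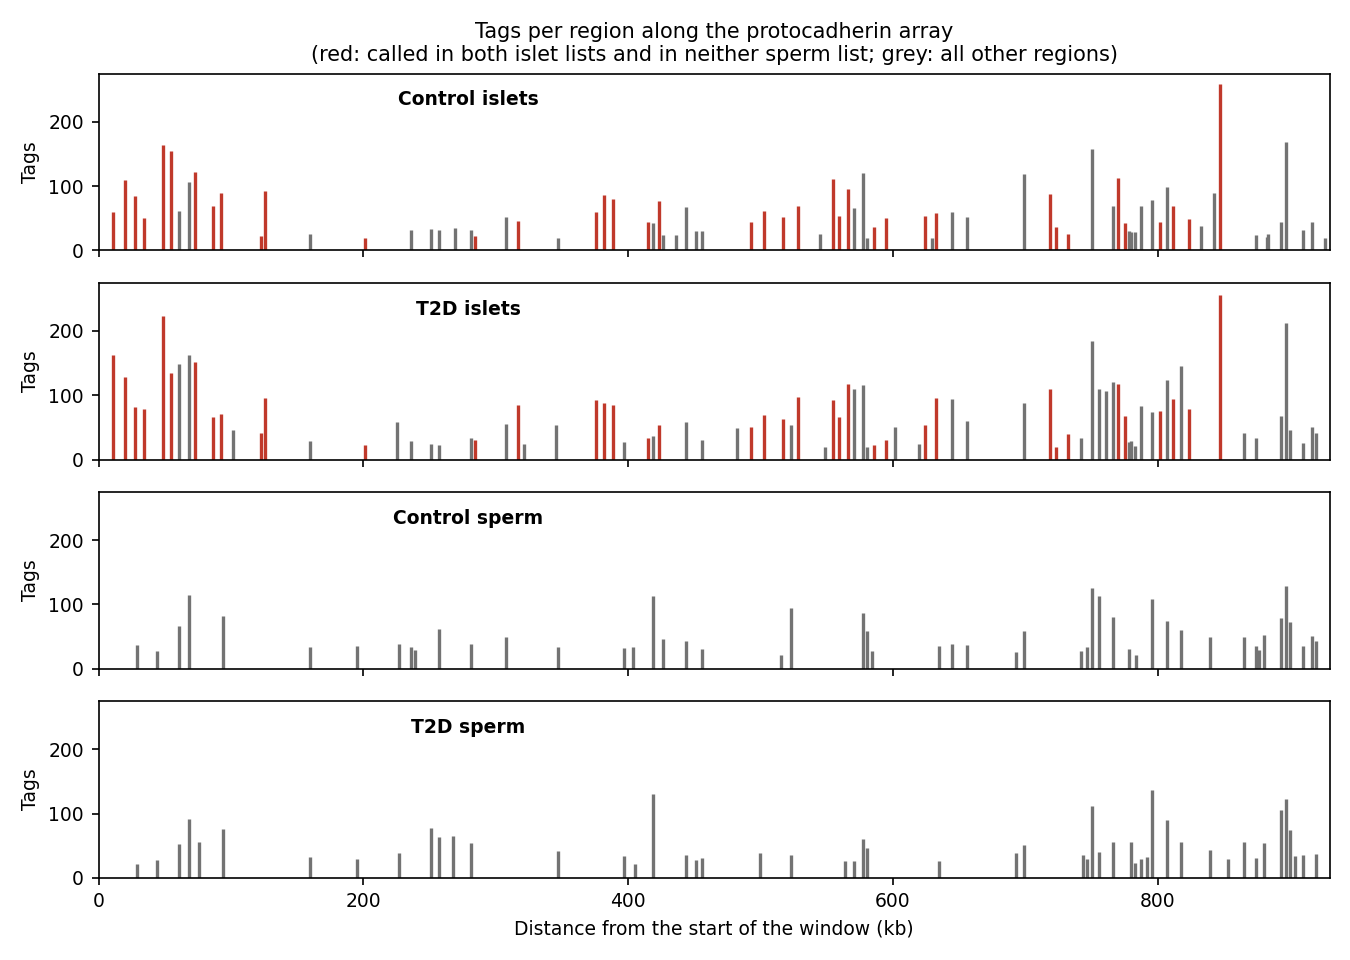
Tags per region against distance from the start of the window in kb, 1 panel per library; a line is a region, red where it was called in both islet lists and neither sperm list. Most lines in the first 100 kb are red, and the highest red line, at 847 kb, stands for 258 and 256 tags.

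Among the regions picked for a call in both islet lists and in neither sperm list, the strongest held many tags in both islet libraries. The leading region, chr18:37925327-37928578, was 3252 bp wide and held 258 tags in control and 256 in T2D islets. It was followed by chr18:37127534-37130026, with 164 and 223 tags, and chr18:37133656-37136210, with 154 and 134 tags. The next were chr18:37151240-37154421, with 122 and 151 tags, and chr18:37098797-37101427, with 109 and 129 tags. Their enrichments ran from 3.60 to 7.26. The median of the 39 regions was 59 tags over 1348 bp in control islets and 78 tags over 1526 bp in T2D islets, with enrichments of 6.62 and 6.71. The 30 islet regions of the array with a sperm peak had medians of 48 and 57.5 tags over 865 and 927 bp, and enrichments of 8.24 and 8.10. Genome-wide, islet regions without a sperm peak had fewer tags than those with one, 41 against 46 in control and 42 against 47 in T2D islets, so the order of the tags was reversed in the array.

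Of the 19 regions shared by all 4 lists, the 5 with the highest mean tags included 4 in the last 310 kb. The leading one was chr18:37975660-37977840, with 168 and 213 tags in control and T2D islets and 128 and 123 in control and T2D sperm. In the same order, chr18:37828732-37831708 held 158, 185, 126 and 111 tags, and chr18:37885494-37887975 held 99, 123, 74 and 90. At chr18:37875223-37876670 the order of the tissues was reversed, with 78 and 74 tags in islets and 108 and 136 in sperm. The remaining one, chr18:37147554-37149408, lay in the first 100 kb and held 107, 162, 115 and 92 tags.

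Regions called in both sperm lists and neither islet list were fewer. The strongest, chr18:37173529-37174876, held 82 and 76 tags in the control and T2D libraries at enrichments of 14.35 and 12.60, and began less than 1000 bp from the end of an islet region (chr18:37171637-37173133, 89 and 71 islet tags). The other regions named by rank held 52 and 54 tags (chr18:37960009-37961167), 49 and 43 tags (chr18:37918651-37920134), 39 and 39 tags (chr18:37306670-37307489) and 36 and 30 tags (chr18:37274551-37275386). By the rule that picked them, none of these 5 had an islet call.

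Where both tissues had a call, tags were compared after centring on the median ratio of all such regions, which was -0.46 on the log2 scale in either condition, since the islet depth is unknown. In control libraries the 27 array regions called in both tissues had a median log2 ratio of islets to sperm of 0.34 (interval of the median -0.01 to 0.78). Without the centring this median was -0.11, so its direction depends on that step. Of these, 3 were at least 2-fold higher in islets and 1 at least 2-fold lower, against 6.38% and 4.82% of all regions. In T2D libraries the 31 regions had a median of 0.60 (0.03 to 1.25), or 0.13 without the centring. After centring, 13 were at least 2-fold higher in islets (41.9%, against 6.69% of all regions) and 3 at least 2-fold lower (9.68%, against 4.5%). Without it 6 were higher and 4 lower, and no share of all regions was computed. Per bp of peak, 5 of the 31 were higher and 1 lower, and no share of all regions was computed at this measure. The medians per bp were 0.10 in control and 0.22 in T2D. The highest ratio in T2D was at chr18:37649614-37651357, with 110 tags in T2D islets and 26 in T2D sperm (66 in control islets, no call in control sperm). Against the general direction, chr18:37498415-37499608 held 42 and 36 tags in control and T2D islets and 113 and 130 in control and T2D sperm.

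Measures of even spacing gave no single answer over the whole array. Neighbouring islet peaks of the array lay at a median distance of 7.67 kb (control) and 7.50 kb (T2D) between midpoints, within the 7.11 to 7.79 kb of the flanks. In sperm the medians were 11.1 and 11.0 kb, against 6.01 to 8.21 kb in the flanks. The coefficient of variation of the distances, which is near 1 for points placed at random along a line and smaller for even spacing, was 0.862 and 0.809 in control and T2D islets. The flanks had 0.752 to 0.873, and 42.2% and 29.3% of the autosomal windows had lower values than the array. The share of distances between 0.5 and 1.5 times the median was 55.0% in control islets, against 47.6% and 49.5% in the upstream and downstream flanks, and 62.4% in T2D islets, against 51.3% and 54.3%. In control and T2D sperm this share was 42.0% and 45.1%, below the 53.7% to 58.4% of the flanks. The coefficient of variation was 0.929 and 0.994 in control and T2D sperm, against 0.764 to 0.966 in the flanks. Of the autosomal windows, 59.5% and 70.8% had a lower coefficient of variation in control and T2D sperm. The 39 islet regions without a sperm call had a median distance of 11.9 kb and a coefficient of variation of 1.04. The stretch of the first 100 kb, picked after its values were seen, was more even, with a coefficient of variation of 0.419 over 10 distances, 8 of them between 3 and 10 kb; other stretches of that length were not compared.

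T2D and control islets called mostly the same regions of the array. A control partner was found for 69 of 86 T2D islet peaks (80.2%, 70.6% to 87.3%), against 70.6% in the flanks and 67.3% in the whole list, and a T2D partner for 69 of 81 control islet peaks (85.2%, 75.9% to 91.3%), against 69.2% and 67.3%. Of the 123 regions, 17 (13.8%) were called in T2D but not control islets and 12 (9.76%) in control but not T2D islets, against 17.5% and 17.5% of all regions. The T2D islet peaks without a partner were led by score by chr18:37180890-37181809 (46 tags), chr18:37304797-37306121 (58 tags) and chr18:37896168-37899092 (145 tags), of which the last also had 60 and 55 tags in control and T2D sperm. The leading control islet peaks without a partner were smaller, with 30 tags at chr18:37530661-37531473, 20 at chr18:38006559-38006964 and 26 at chr18:37624945-37625528; at the first of these T2D sperm held 27 tags.

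The islet peaks of the array were wider and held more tags in T2D than in control. In all they held 6444 tags over 120 kb in T2D and 5052 tags over 96.2 kb in control islets, ratios of 1.28 for tags and 1.24 for length. Both ratios were smaller with the best 50% of each list by score, at 1.19 and 1.13. With the window trimmed by 50 kb at each end they were 1.21 and 1.21. The upstream and downstream flanks gave tag ratios of 0.970 and 1.01, and the whole lists 0.998, with a length ratio of 1.04. Among the 2282 autosomal windows, 56 had a higher tag ratio and 143 a higher length ratio than the array. More tags in T2D were seen in 25 of the 30 tiles with islet peaks. The ratio of tags was 1.29, 1.20 and 1.31 in the first, middle and last 310 kb. Peak numbers differed less, at 86 against 81 (ratio 1.06, 0.775 to 1.46).

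Region by region, the ratios were mostly small. The 69 regions called in both islet lists had a median log2 ratio of T2D to control tags of 0.21 (0.03 to 0.29), and 44 of them (63.8%) were above the genome-wide centre, against 49.5% of all regions. At least 2-fold higher in T2D were 2 regions (2.90%, against 2.16% genome-wide) and at least 2-fold lower 0 (against 1.65%), which with 69 regions allows a share of up to 4.35%. At 1.5-fold, 16 were higher (23.2%, against 10.4%) and 3 lower (4.35%, against 8.94%). Per bp of peak the median log2 ratio was 0.08, and 0 regions were 2-fold higher. In 35 regions of at least 1500 bp, a split made after seeing the data, the median log2 ratio of tags was 0.29 (0.09 to 0.51). Of these, 27 were higher in T2D (77.1%, against 51.2% of all regions of that width). In the 34 narrower regions the median was 0.04 (-0.20 to 0.21), and 17 were higher in T2D (against 48.6% of all narrower regions). Genome-wide these medians were 0.02 and 0.00. The width of a region includes its T2D call, so a wider T2D call can itself place a region among the wide ones, and the split does not locate the excess. The 69 shared regions held 5513 tags in T2D and 4679 in control islets, while the regions called in T2D islets alone held 931 and those called in control islets alone 373.

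**Figure D5:**
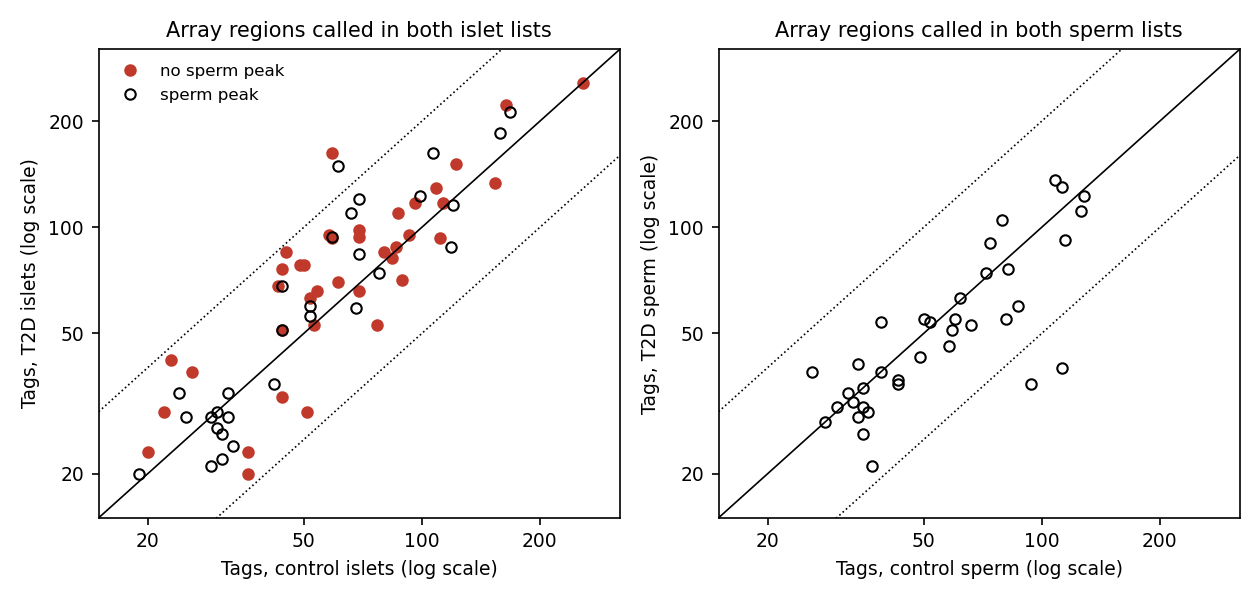
Tags in T2D against control libraries for array regions called in both lists of a tissue, on log scales, with the line of equality (solid) and 2-fold lines (dotted). In islets (69 regions) 2 points lie above the upper dotted line, and in sperm (37 regions) 2 lie below the lower one.

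The largest ratio was at the first region of the array, chr18:37089672-37092257, with 59 tags in control and 162 in T2D islets and no call in sperm. The calls there were 1217 bp wide in control and 2586 bp in T2D. Next came chr18:37139559-37141493, with 61 and 149 islet tags over 990 and 1915 bp, while sperm held 66 and 53. After it, chr18:37395183-37397725 held 45 and 85 tags over 1349 and 2293 bp. The lowest ratios were at smaller peaks, with 36 and 20 tags at chr18:37802425-37803332, 51 and 30 at chr18:37674362-37675211 and 36 and 23 at chr18:37664895-37666079.

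The sperm libraries had similar totals in the array. T2D and control sperm held 2667 and 2762 tags, a ratio of 0.966, over 50.7 and 51.9 kb, and 1492 of 2282 windows had a higher tag ratio. Partners were found for 37 of 52 T2D sperm peaks (71.2%, 57.7% to 81.7%) and 37 of 51 control sperm peaks (72.5%, 59.1% to 82.9%), against 69.4% and 69.9% of the whole lists. In T2D but not control sperm 15 regions (12.2%) were called and in control but not T2D sperm 14 (11.4%), against 17.7% and 17.3% of all regions. The first were led by chr18:37932641-37933122 (29 tags), chr18:37330643-37331778 (78 tags, with 33 and 24 in control and T2D islets) and chr18:37983444-37984093 (34 tags). The second were led by chr18:37387353-37388604 (50 tags), chr18:37996325-37997189 (51 tags) and chr18:37505999-37507040 (46 tags), and all 3 also had a call in control islets. Of these, chr18:37387353-37388604 and chr18:37996325-37997189 were also called in T2D islets (56 and 51 tags), and chr18:37505999-37507040 was not.

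In the 37 regions called in both sperm lists the median log2 ratio of T2D to control tags was -0.11 (-0.22 to 0.02), and 13 (35.1%) were above the centre, against 49.3% of all regions. None was at least 2-fold higher (0 of 37, which allows up to 8.11%, against 1.54% genome-wide) and 2 were at least 2-fold lower (5.41%, against 1.51%). These were chr18:37833563-37837157, where control sperm held 113 tags and T2D sperm 40, over 2217 and 762 bp, and chr18:37601399-37604334, with 94 and 36 tags over 2101 and 1081 bp. Both also had a call in T2D islets (110 and 53 tags) and none in control islets. Both had narrower calls in T2D sperm, and per bp of peak 0 regions were 2-fold lower. The region with the next lowest ratio, chr18:37108700-37109636, held 37 and 21 tags. The highest ratios were at chr18:37772193-37773277 (26 and 39 tags), chr18:37360815-37361901 (39 and 54) and chr18:37972132-37973745 (79 and 105).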

How the data were processed

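Per the submitters' processing notes, reads were placed on mouse build mm9 with CASAVA 1.4 among the tools. Per the file headers, the authors called the sperm peaks with MACS on 49 bp tags and no control library; the p-value limit was 1.00e-05, the local background was taken over 5000 bp and at most 2 tags kept per position. The islet lists have the same columns, but their caller and settings are not stated in the labels or files. The deposited lists give each peak's position, count of tags, score (a rescaled negative log10 p-value) and fold enrichment, a ratio to the background of the same library. Libraries were amplified with 15 PCR cycles, so tags are not independent molecules.

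A peak belonged to the array, or to a flank of 2 Mb, where it overlapped it by at least 1 bp. Overlapping peaks of the 4 lists were merged into regions, with tags summed per list. Scripts used numpy 2.4.6, pandas 2.3.3 and scipy 1.17.1, and were checked on simulated lists. With 1 library per group no test was made; islets and sperm were compared within each condition. Intervals are at 95%: exact Poisson for densities, exact binomial for count ratios, Wilson for shares and order statistics for medians. Regions were named by rank of tags, score or ratio. The window, lists and rules were chosen with earlier results of these data known. The window's sequence was not used here.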

Additional observations from a re-analysis of the deposited data

Results flagged for a closer look

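With 1 library per group, values that moved in opposite directions from control to T2D in islets and in sperm were picked out; none of these differences between tissues was tested. Array tags gave a T2D to control ratio of 1.28 in islets and 0.966 in sperm, and covered length 1.24 and 0.977. Median tags per peak gave 1.24 in islets and 0.919 in sperm. For regions called in both lists the median log2 ratio was 0.21 (0.03 to 0.29) in islets and -0.11 (-0.22 to 0.02) in sperm. The sperm interval includes 0. In the middle 310 kb of the array the tag ratio was 1.20 in islets and 0.895 in sperm, and in the last 310 kb 1.31 and 0.955. In the first 310 kb it was above 1 in both tissues, at 1.29 and 1.06.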

How the results depend on the processing

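Of 152 alternative values of 54 results, 131 stayed the same and 21 moved. For most results, the same meant within the interval of the reported value. For counts, coefficients of variation and the T2D to control ratios of islet totals it meant within 1.5 times of it. That limit is wide for these ratios and coefficients, so the label says little for them. With the best 50% of each list by score, the islet ratios of tags and length became 1.19 and 1.13. The coefficients then became 1.07 and 0.973 in control and T2D islets and 0.769 and 1.21 in control and T2D sperm. None of the values recomputed moved with flanks of 1 Mb, a window trimmed by 50 kb at each end, midpoints, distances between summits, a reciprocal overlap of 50% and partners within 1000 bp. With the best 50% of each list by score, the median distance between peaks became 11.1 and 11.2 kb in control and T2D islets and 19.0 and 14.7 kb in control and T2D sperm, since fewer peaks remain. The partner shares became 75.5% for control islet peaks in T2D islets, 23.1% for T2D islet peaks in T2D sperm and 34.3% for T2D sperm peaks in T2D islets, and the enrichment of T2D islet peaks relative to the flanks became 0.871. The islet density relative to the flanks, whose intervals include 1, passed from below to above 1, from 0.896 to 1.10 in control and from 0.971 to 1.09 in T2D. Per bp of peak, regions at least 2-fold higher in T2D islets became 0 and 2-fold lower in T2D sperm 0, and islets over sperm in T2D gave 5 higher and 1 lower. No shares of all regions were computed per bp of peak or without centring. Without centring, islets over sperm gave 1 higher and 3 lower in control and 6 higher in T2D, and the median log2 ratio in control changed sign, from 0.34 (with an interval that includes 0) to -0.11, so its direction depends on the centring. At 1.5-fold, T2D islets had 16 higher and 3 lower of 69, against 10.4% and 8.94% of all regions. T2D sperm had 1 higher of 37 (genome-wide 10339 of 123442). Islets over sperm in control had 8 higher and 2 lower of 27 (genome-wide 16156 and 15041 of 99125). For each other change the cause was not tested. The alternatives for totals, for regions without a sperm call and for median ratios were added after seeing the data. No paired fit was made: islet and sperm libraries of a condition were compared as 2 separate pairs, and both pairs are given. Depth limits the islet to sperm ratios, since the islet totals were not given.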
